A study of Mus musculus with 12 samples.

Results

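Mia and Ncam1, together with 6 further genes that mark neural crest derivatives (Sox10, S100b, Mbp, Kit, Gfra1 and L1cam), were followed in 12 salivary tumors. All probe sets annotated to a single one of these 8 symbols were taken, which gave 26 of the 22626 probe sets on the array, for 8 of 12393 genes with such a symbol. Mia has 1 probe set, Ncam1 6, Sox10 3, Mbp 8, and S100b, Kit, Gfra1 and L1cam 2 each. Mia and Ncam1 were selected on their genotype means in these same tumors, so their genotype differences are described below without a test, and the 19 probe sets of the other 6 genes were tested.

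The tumors arose in adult mice that all carry the MMTV-ras transgene, an activated Hras gene driven by the mouse mammary tumor virus promoter, which is active in mammary and salivary epithelium. They comprise 4 tumors from MMTV-ras/p53+/+ mice (WT1 to WT4), 4 from MMTV-ras/p53-/- mice (KO1 to KO4) and 4 from MMTV-ras/p53R172H/R172H mice (MT1 to MT4), the last homozygous for a knock-in allele with an arginine to histidine change (R172H). The mice are of mixed Balb/c and C57BL/6 descent, and the R172H allele was brought in by a separate cross, so that allele and colony cannot be told apart. RNA came from frozen sections of tumor pieces that the authors chose for largely homogeneous tumor mass, with 1 Affymetrix mouse array per tumor. Since the labels leave unstated whether tumors of a genotype had separate hosts, all p-values refer to the spread among the tumors sampled.

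Values are log2 expression levels, on which a difference of 1 is a doubling of signal, and tests are those of limma with Benjamini-Hochberg adjustment over all 22626 probe sets and a threshold of 0.05. The poly-A control probe sets, which read RNA spiked in at labeling, averaged 10.38 to 10.56 in MT1 to MT3, whereas the other 9 tumors had 3.98 to 4.23. This split is taken as a labeling batch, which the labels do not name, and MT4 is then the only MT tumor in the batch of the WT and KO tumors. The mean 18S ribosomal RNA signal was 8.90 to 9.33 in WT1 to WT3 and 6.41 to 6.59 in MT1 to MT3, with the other 6 tumors in between. The epithelial keratins Krt8 and Krt18 and the salivary water channel Aqp5 lay above the 99th percentile of the array in the median tumor, so the defining markers of the labeled tissue were present.

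The neural crest is an embryonic cell population that gives rise to Schwann cells, melanocytes, enteric neurons and part of the facial skeleton. Sox10 is the transcription factor that maintains its glial and pigment lineages, Mbp and S100b are products of the glial branch, Kit is the receptor through which melanoblasts and mast cells receive stem cell factor, and Gfra1 with Ret forms the receptor for GDNF on enteric progenitors. Several of these genes are not restricted to the neural crest: in salivary glands, Sox10 and Kit are expressed by acinar and duct cells, Mia is a secreted protein of cartilage as well as of melanoma cells, and Ncam1 and L1cam are adhesion proteins of nerve and of many other tissues.

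The level of the 8 genes split them into an abundant and a scarce group. Kit and Sox10 were among the highest signals on the array, with the median tumor at the 98.1st percentile for the brightest Sox10 probe set (1451689_a_at) and at the 97.2nd for the brightest Kit probe set (1452514_a_at). Mia lay at the 89.9th percentile in the median tumor but ranged from the 28.5th to the 97.9th. The brightest probe sets of Ncam1 and L1cam lay near the middle of the array, at the 52.4th and 48.6th percentiles, and those of S100b and Gfra1 in its lower part, at the 27.5th and 15.3rd. For Mbp, the 8 probe sets spread from the 1.72nd to the 62.6th percentile, and the brightest of them (1425264_s_at) is of a type whose oligonucleotides may also match other transcripts. The array values do not permit levels of different genes to be compared per transcript length, and these percentiles rank signals only.

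**Figure D1:**
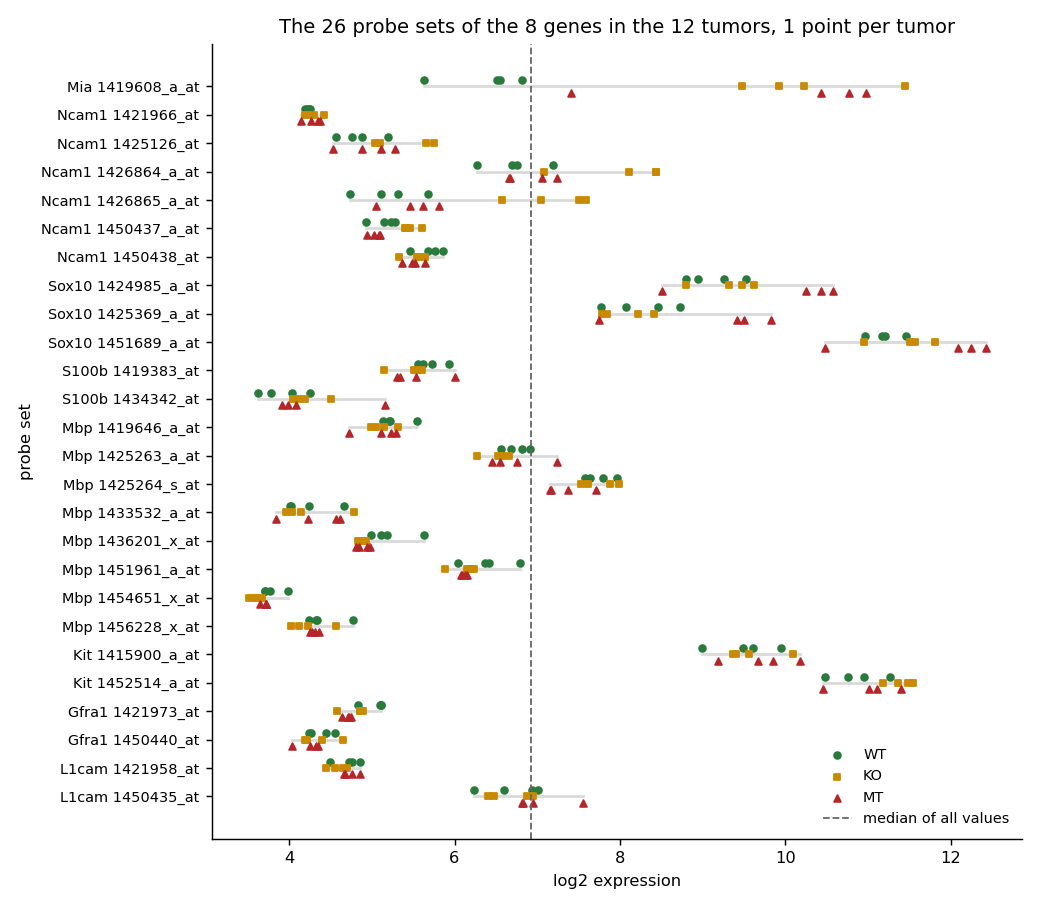
Log2 expression (horizontal axis) of the 26 probe sets (vertical axis) in the 12 tumors, 1 point per tumor, with WT tumors as green circles, KO tumors as yellow squares and MT tumors as red triangles. Grey lines span the lowest to the highest tumor, and the dashed line is the median of all values on the arrays, 6.93. Mia spans 5.82 log2 units, and 3 MT tumors stand apart on the right at each Sox10 probe set.

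Mia, a small secreted protein that binds fibronectin and integrins and was named for melanoma inhibitory activity, was low in every WT tumor and high in every KO tumor. Its probe set (1419608_a_at) read 5.63, 6.81, 6.55 and 6.51 in WT1 to WT4, and 11.45, 9.47, 9.92 and 10.22 in KO1 to KO4. In MT1 to MT4 it read 10.43, 10.77, 10.97 and 7.40. The values fell into separate levels, with the WT tumors at the bottom, MT4 a little above the highest of them, and the other MT tumors within the range of the KO tumors. The lowest tumor (WT1) and the highest (KO1) were 56.3-fold apart.

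The mean of Mia was 6.38 ± 0.51 over WT, 10.27 ± 0.85 over KO and 9.89 ± 1.67 over MT tumors (SD, n = 4 each), which places WT 14.8-fold below KO and 11.4-fold below MT. On the log2 scale WT minus KO was -3.89 (SE 0.71) and MT minus WT was 3.52 (SE 0.71), whereas MT minus KO was -0.37 (SE 0.71) with overlapping groups. The 4 WT tumors lay below all 8 tumors with altered p53, an arrangement that 1.74% of all probe sets share. The MT values turned on a single tumor and on the labeling batch. Without MT4, MT minus KO was 0.46, the opposite sign, and within the batch, where MT4 alone stands for its genotype, MT minus KO was -2.86 (SE 0.62) and MT minus WT was 1.03 (SE 0.62). What belongs to MT4 and what belongs to the labeling of MT1 to MT3 cannot be told apart.

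The 250 bases upstream of the Mia start site in the RefSeq annotation of GRCm38.p6, chr7:27181150-27181399 on the minus strand, are shown because Mia has the widest genotype range of the 8 genes, with those of Kit, chr5:75574737-75574986 on the plus strand, for contrast, since Kit was high throughout. Both run 5′ to 3′, and capitals mark a GC box (GGGCGG on either strand).
Mia: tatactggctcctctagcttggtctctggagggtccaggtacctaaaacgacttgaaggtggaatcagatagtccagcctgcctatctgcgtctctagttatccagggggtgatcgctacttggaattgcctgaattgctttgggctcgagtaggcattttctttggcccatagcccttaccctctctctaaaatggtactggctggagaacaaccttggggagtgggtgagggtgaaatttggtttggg
Kit: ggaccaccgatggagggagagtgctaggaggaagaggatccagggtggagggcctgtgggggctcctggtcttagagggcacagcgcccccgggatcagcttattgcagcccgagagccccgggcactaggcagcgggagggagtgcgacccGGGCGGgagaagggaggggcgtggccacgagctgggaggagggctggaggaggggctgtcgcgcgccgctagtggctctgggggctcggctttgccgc
The windows differ in composition, with a G+C content of 50.4% for Mia and 70.8% for Kit. Searched on both strands, the Mia window held no match to the SOX core letters ACAAAG or ACAAT, the GC box, the E-box CANNTG or the p53 half-site, and that of Kit held 1 GC box and none of the others. Of 32851 promoter windows of this length, 16.5% held ACAAAG, 27.7% ACAAT, 32.7% the GC box, 66.2% the E-box and 7.13% the p53 half-site. The p53 half-site was matched in none of the windows of Mia, S100b, Kit, Gfra1 and L1cam, and ACAAT once, upstream of Gfra1. These are matches of letters in short windows and not measured binding sites, and the promoters of Ncam1, Sox10 and Mbp are not shown.

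Ncam1, the neural cell adhesion molecule that binds its own kind across neighboring cells, was higher in KO tumors than in either other genotype. The clearest probe set, 1426865_a_at, read 7.51, 7.58, 7.04 and 6.58 in KO1 to KO4. It read 4.73, 5.11, 5.68 and 5.32 in WT1 to WT4, and 5.05, 5.47, 5.62 and 5.81 in MT1 to MT4. The lowest KO tumor was above the highest WT and MT tumors, and the WT and MT ranges overlapped over most of their length. Of all probe sets on the array, 0.835% have the 4 KO tumors above the other 8.

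For 1426865_a_at, WT was 3.91-fold below KO (log2 -1.97, SE 0.26) and MT 3.23-fold below KO (log2 -1.69, SE 0.26), while MT minus WT was 0.28 (SE 0.26). Within the labeling batch MT4 remained below KO, by log2 -1.37 (SE 0.41). The brightest probe set, 1426864_a_at, had the same order with smaller differences. It read 8.44, 8.43, 8.11 and 7.09 in KO1 to KO4, against 6.27 to 7.19 in WT and 6.66 to 7.23 in MT tumors, so that KO4 lay among the tumors of the other genotypes. There WT minus KO was -1.29 and MT minus KO -1.11 (SE 0.30 for each), and without KO4 these were -1.60 and -1.42.

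The other 4 Ncam1 probe sets were dim and moved little. At 1450437_a_at the KO tumors (5.40 to 5.61) lay above the WT (4.93 to 5.28) and MT (4.94 to 5.09) tumors, but the differences from KO were only -0.32 for WT and -0.44 for MT (SE 0.10 for each). At 1425126_at WT minus KO was -0.54 (SE 0.21) and MT minus KO -0.44 (SE 0.21), with overlapping groups. At 1421966_at and 1450438_at all differences were under 0.2 in size, and the 12 tumors lay between 4.15 and 4.42 and between 5.32 and 5.87. The 6 probe sets read different stretches of the Ncam1 transcripts, and they disagree on the size of the difference, from 3.91-fold to none that exceeds the spread between tumors. In RNA from tumor sections, fewer cells that express a gene and less RNA of it per cell cannot be told apart.

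**Figure D2:**
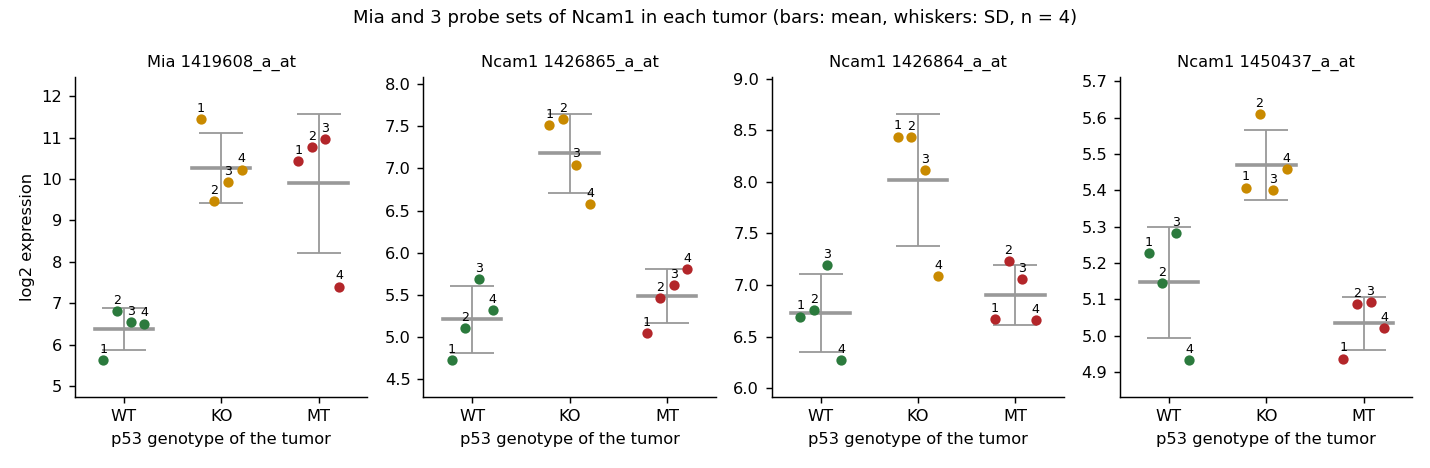
Log2 expression (vertical axes, each panel on its own scale) of Mia and of 3 Ncam1 probe sets in WT, KO and MT tumors (horizontal axes). Points are single tumors marked with their number, grey bars the mean and whiskers the SD (n = 4). MT4 (7.40) lies far below the other MT tumors for Mia, and the KO tumors lie above all others for Ncam1 1426865_a_at, with KO4 (6.58) the lowest of them.

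None of the other 6 genes differed between genotypes by the test. Of their 19 probe sets, 0 passed in each of the 3 comparisons with limma, where 4.57% of all probe sets passed for WT minus KO, 0.00884% for MT minus KO and 0.367% for MT minus WT. At an unadjusted p under 0.05, 3 of 19 were found for WT minus KO, 2 for MT minus KO and 4 for MT minus WT, against 23.9%, 9.58% and 19.4% of all probe sets. The methods' t-test called 0 of 19, but only 10, 0 and 0 probe sets in all for WT minus KO, MT minus KO and MT minus WT. SAM for 3 groups also called 0 of 19, where 0.65% of all probe sets were called at a false discovery rate of 1% and 6.19% at 5%. Nearly all differences were small: 18, 17 and 16 of 19 were under 0.5 in size for WT minus KO, MT minus KO and MT minus WT. Groups of tumors did not overlap at 2 of the 19 for WT minus KO, at 0 for MT minus KO and at 2 for MT minus WT, against 14.5%, 4.85% and 10.9% of all probe sets.

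Sox10, the crest transcription factor, moved in parallel at its 3 probe sets from tumor to tumor. The brightest, 1451689_a_at, read 10.96, 11.46, 11.20 and 11.16 in WT1 to WT4, and 10.95, 11.57, 11.51 and 11.80 in KO1 to KO4. In MT1 to MT4 it read 12.42, 12.25, 12.09 and 10.48. Thus MT1, MT2 and MT3 were the 3 highest of the 12 tumors and MT4 was the lowest, while WT and KO tumors overlapped.

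The same arrangement held at the other 2 Sox10 probe sets. At 1424985_a_at MT1 to MT3 read 10.25 to 10.57, MT4 8.50 and the other 8 tumors 8.80 to 9.63. At 1425369_a_at MT1 to MT3 read 9.41 to 9.83, MT4 7.75 and the other 8 tumors 7.77 to 8.72. The gap between the mean of MT1 to MT3 and MT4 was 1.77, 1.92 and 1.84 for 1451689_a_at, 1424985_a_at and 1425369_a_at. Among all probe sets, 2.48% have MT1, MT2 and MT3 above the other 9 tumors, and these are the tumors with high poly-A controls.

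With all 12 tumors, MT minus WT for Sox10 was 0.61 (SE 0.37, limma adjusted p = 0.379), 0.81 (SE 0.40, adjusted p = 0.292) and 0.86 (SE 0.39, adjusted p = 0.258) at 1451689_a_at, 1424985_a_at and 1425369_a_at. MT minus KO was 0.35, 0.64 and 1.06, with limma adjusted p-values of 0.827, 0.669 and 0.426. MT4 decided these calls. Without it, MT minus WT passed at all 3 probe sets (1.06, 1.29 and 1.32, limma adjusted p = 0.0213, 0.0169 and 0.0190). MT minus KO passed at 2 of them (1.11 with limma adjusted p = 0.0460 at 1424985_a_at, 1.51 with limma adjusted p = 0.0229 at 1425369_a_at). But the MT group is then MT1 to MT3, which the poly-A controls set apart from all WT and KO tumors. In that setting 1.76% of all probe sets passed as higher in MT than in WT and 0.495% as higher in MT than in KO.

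Within the labeling batch the direction was the opposite. MT4 lay below the WT mean by log2 -0.72, -0.63 and -0.51 and below the KO mean by -0.97, -0.80 and -0.32 at 1451689_a_at, 1424985_a_at and 1425369_a_at, with no adjusted p under 0.545. The direction of Sox10 in MT tumors thus depends on which MT tumors are read, and MT1 to MT3 and their labeling batch cannot be told apart. WT and KO tumors, which share the batch, differed by -0.26 to 0.19 at the 3 probe sets, with adjusted p-values of 0.705 to 0.826.

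Kit, the receptor for stem cell factor, was high in all 12 tumors and without a difference that passed. Its brighter probe set, 1452514_a_at, read 10.95, 10.48, 11.27 and 10.75 in WT1 to WT4, and 11.18, 11.36, 11.54 and 11.49 in KO1 to KO4. In MT1 to MT4 it read 11.01, 10.46, 11.40 and 11.11. Of the 4 WT tumors, 3 lay below the lowest KO tumor, and WT3 and MT3 lay among the KO tumors. WT minus KO was -0.53 (SE 0.21), with a limma adjusted p of 0.152. At 1415900_a_at, where tumors ranged from 8.997 (WT2) to 10.18 (MT3), WT minus KO was -0.10 (SE 0.25, adjusted p = 0.851). Unlike Sox10, Kit did not set MT1 to MT3 apart: within MT, tumor 3 was the highest and tumor 2 the lowest at both probe sets, as was also so within WT.

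**Figure D3:**
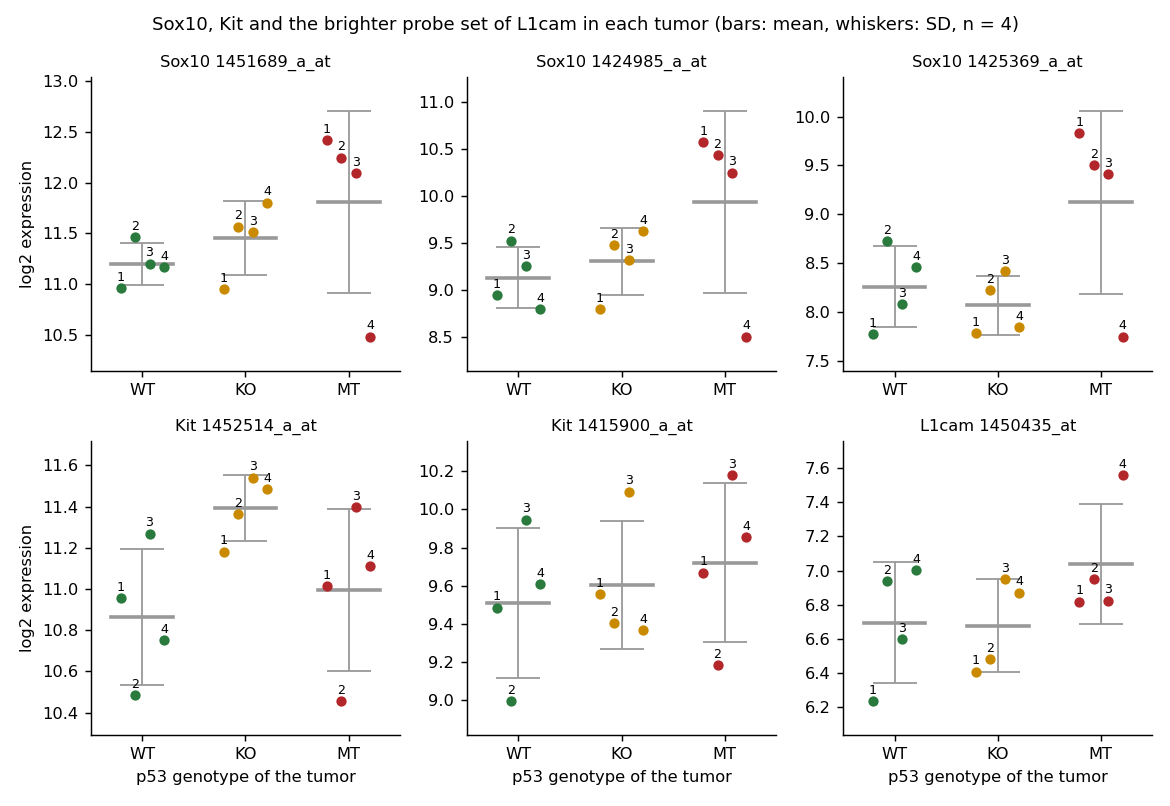
Log2 expression (vertical axes, each panel on its own scale) of the 3 Sox10 probe sets, the 2 Kit probe sets and the brighter L1cam probe set in WT, KO and MT tumors (horizontal axes). Points are single tumors marked with their number, grey bars the mean and whiskers the SD (n = 4). For Sox10, MT1 to MT3 are the highest tumors and MT4 the lowest, and for L1cam MT4 (7.56) is the highest.

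L1cam, an adhesion molecule of growing axons related to Ncam1, was moderate in level. At 1450435_at it read 6.24, 6.94, 6.60 and 7.004 in WT1 to WT4, and 6.41, 6.48, 6.95 and 6.87 in KO1 to KO4. In MT1 to MT4 it read 6.82, 6.95, 6.82 and 7.56. Only MT4 left the common range. MT minus WT was 0.34 (SE 0.22, limma adjusted p = 0.410) and MT minus KO 0.36 (SE 0.22, adjusted p = 0.652), and the same differences within the labeling batch, where MT4 stands alone, were 0.86 (adjusted p = 0.482) and 0.88 (adjusted p = 0.651). The second L1cam probe set, 1421958_at, was dim (4.45 to 4.86) with differences of at most 0.15.

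S100b, a calcium-binding protein of glia that can also bind p53, was dim. At 1419383_at the WT tumors read 5.56 to 5.93, the KO tumors 5.15 to 5.60 and the MT tumors 5.30 to 6.01, and WT minus KO was 0.26 (SE 0.17, limma adjusted p = 0.374). At 1434342_at MT2 read 5.16, with the remaining 11 tumors at 3.62 to 4.51. MT2 was the highest tumor at both S100b probe sets.

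Mbp, the myelin basic protein gene, which also makes Golli transcripts outside myelin, had no probe set that passed in any comparison. The largest difference among its 8 probe sets was at 1425264_s_at, where MT tumors (7.16, 7.71, 7.16 and 7.38) averaged below WT and KO tumors (7.53 to 7.99). MT minus KO was -0.40 (SE 0.16, limma adjusted p = 0.438) and MT minus WT -0.39 (SE 0.16, adjusted p = 0.207). At 1436201_x_at the WT tumors read 4.98, 5.63, 5.19 and 5.11, all above the KO tumors (4.83 to 4.94). WT and KO tumors do not overlap at 14.5% of all probe sets, and here WT minus KO was 0.34 (SE 0.13, limma adjusted p = 0.137). WT2 was the highest WT tumor at most Mbp probe sets, this one included. Probe sets of the x type may bind unrelated transcripts, and no differences at the other probe sets exceeded 0.3.

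Gfra1, the GDNF-binding receptor subunit, was near the bottom of the array. At 1421973_at it read 5.10, 5.11, 5.12 and 4.83 in WT1 to WT4, and 4.64, 4.73, 4.75 and 4.71 in MT1 to MT4. The groups did not overlap, as at 10.9% of all probe sets, and MT minus WT was only -0.33 (SE 0.11, limma adjusted p = 0.138). In KO tumors it read 4.57 to 4.89. At 1450440_at all tumors lay between 4.03 and 4.65, and no difference exceeded 0.14.

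**Figure D4:**
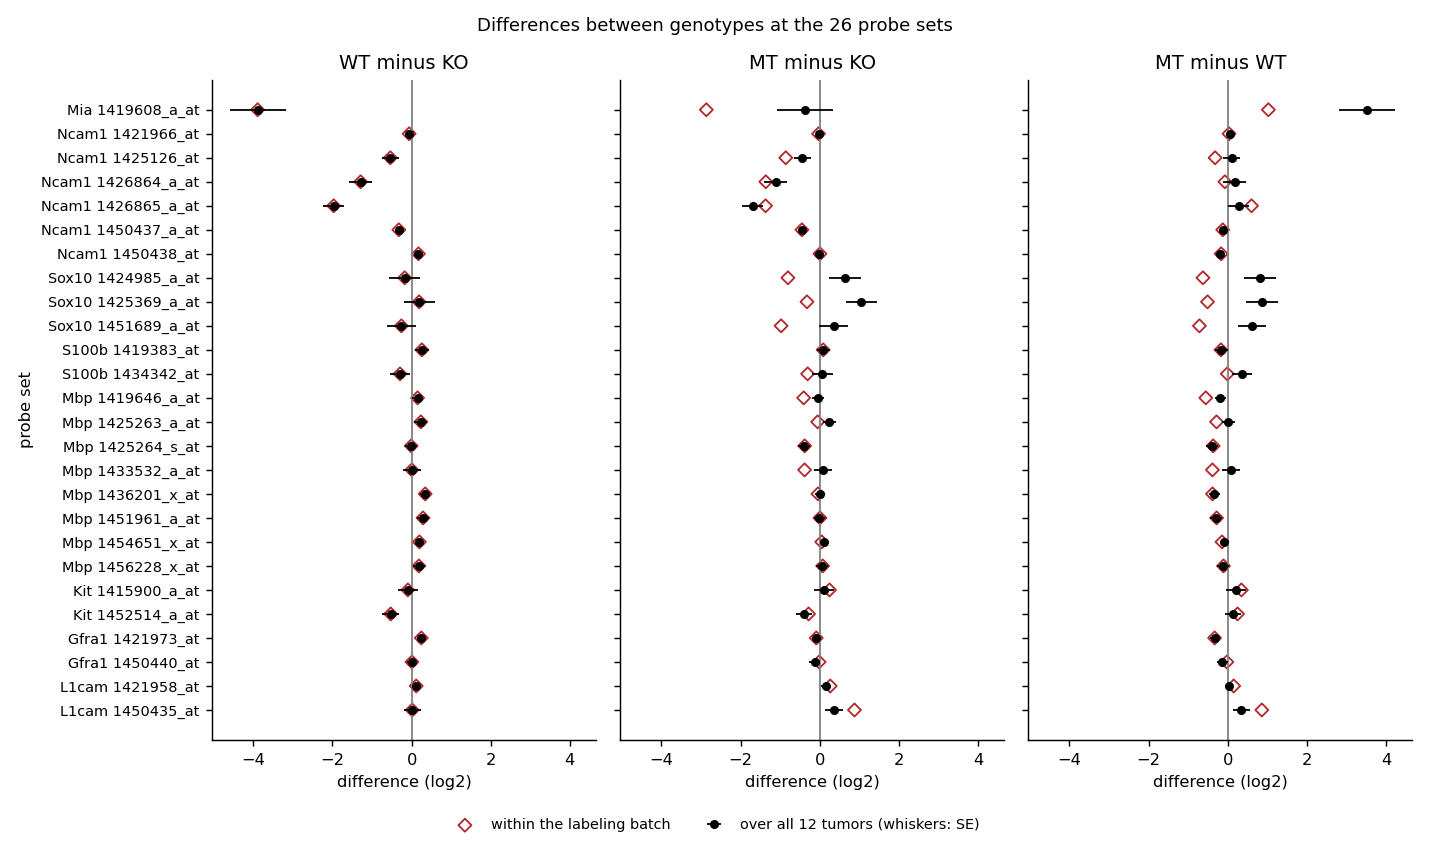
Differences between genotypes (horizontal axes, log2) at the 26 probe sets (vertical axis) for WT minus KO, MT minus KO and MT minus WT. Filled circles are differences over all 12 tumors with their SE, and open diamonds the differences within the labeling batch, where MT is MT4 alone. Mia and 2 Ncam1 probe sets lie far to the left for WT minus KO, and the Sox10 differences of MT change sign between circles and diamonds.

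Since Sox10 varied most among the tested genes, the deviation of each tumor from its genotype mean was correlated between 1451689_a_at and the brightest probe set of each other gene, 7 relations over 12 tumors, with exact permutation of tumors within genotypes (13824 arrangements, 2-sided). For Mia, Pearson's r was 0.67 (p = 0.192, adjusted p = 0.781) and Spearman's rho 0.38 (p = 0.252, adjusted p = 0.794). MT4, low for both genes, carried it: r was -0.39 without MT4 (exact permutation p = 0.420, adjusted p = 0.489), and 0.53 without KO1 and MT4, the tumors farthest from the median of Sox10 (exact permutation p = 0.205, adjusted p = 0.468). For the other 6 genes r lay between -0.33 (L1cam) and 0.24 (S100b), with rho between -0.27 and 0.29, and the smallest p of these by exact permutation was 0.370. With the MT tumors centered within their labeling batch, MT4 drops out, and r then ran from -0.51 (Ncam1) to 0.61 (L1cam), with adjusted p-values of 0.349 or more. No relation passed.

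To place the 8 genes among their pathways and the cell types they mark, 169 genes in 12 lists were read, of which 155 have a probe set of their own symbol. These lists were chosen with results of these tumors known. By limma, 1 of these 155 was higher and 3 were lower in WT than in KO tumors, against 2.64% and 1.94% of all probe sets. For MT minus KO 0 of 155 passed, against 0.00884% of all probe sets. The methods' t-test called 0 of 155 for MT minus KO, but also 0 of all probe sets. At an unadjusted p under 0.05, 4 of 155 were found for MT minus KO, against 9.58% of all probe sets. For MT minus WT 2 were higher (0.177% of all probe sets) and 0 lower (0.19%). With each tumor left out in turn, 1 to 7 list genes passed for WT minus KO and 0 to 5 for MT minus WT. The median difference of the 155 genes was 0.01 for WT minus KO, 0.03 for MT minus KO and 0.01 for MT minus WT, beside 0.02, 0.02 and -0.01 over all probe sets.

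The neural crest list holds the specifiers that work with Sox10 and its targets, and 0 of its 20 measured members passed in any comparison. Over all probe sets, 4.57% passed for WT minus KO, 0.00884% for MT minus KO and 0.367% for MT minus WT. A count of 0 in this list, or in the short lists below, is near those shares. For WT minus KO 1 member had an unadjusted p under 0.05, against 23.9% of all probe sets. The median difference of the list was 0.01 for WT minus KO, 0.00 for MT minus KO and -0.04 for MT minus WT. Foxd3 (4.86 to 5.33) and Snai2 (4.79 to 5.56), both early crest factors, were dim in all tumors. Other crest factors of the list were not. Tfap2a read 8.25 to 9.22, Sox9 read 7.62 to 8.57 and Tfap2b ranged from 5.08 to 8.40. Erbb3, the neuregulin receptor, was bright (8.79 to 10.54). Mitf, the pigment cell regulator, reached 8.12 in KO4 and ranged from 6.03 to 6.87 elsewhere. The summed level of the list was 11.07 to 11.54 in WT, 11.21 to 11.74 in KO and 11.26 to 11.31 in MT tumors, as log2 of the sum of its genes.

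Of 9 measured melanocyte genes 0 passed, where at most 4.57% of all probe sets did in any comparison. The pigment enzymes Tyr (4.52 to 5.06) and Dct (5.20 to 5.64) were dim in all 12 tumors. Of 17 Schwann cell and nerve genes only Uchl1, a ubiquitin hydrolase of neurons, passed, for WT minus KO (-0.59, SE 0.15, limma adjusted p = 0.0458) at a level of 4.24 to 5.12. Cnp, an enzyme of myelin that is also in this list, was bright (8.27 to 9.85). The summed level of the melanocyte list was 8.94 to 9.001 in WT, 8.73 to 9.28 in KO and 8.74 to 8.98 in MT tumors, and that of the Schwann list 10.56 to 11.33, 10.52 to 11.17 and 10.67 to 11.32.

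Of 9 mast cell genes, which bear on Kit, the protease gene Cma1 passed for WT minus KO (0.62, SE 0.15, limma adjusted p = 0.0409), and read 4.98 to 5.93. The mast cell carboxypeptidase Cpa3 was at 4.56 to 5.29, and the list summed to 8.52 to 8.70 in WT, 8.39 to 8.60 in KO and 8.42 to 8.62 in MT tumors. Of 13 myoepithelial and basal genes 0 passed, where at most 4.57% of all probe sets did in any comparison. The contractile gene Acta2 read 8.59 to 10.02, the basal markers Krt14 and Trp63 read 5.67 to 6.25 and 5.22 to 5.85, and the list summed to 11.59 to 12.32, 11.87 to 12.58 and 11.95 to 12.13 in WT, KO and MT tumors. Of 10 skeletal muscle genes 0 passed, against the same share. Acta1 was at 7.63 in MT1 and between 4.67 and 5.73 elsewhere, and the muscle list had sums of 8.91 to 9.13, 8.70 to 8.90 and 8.71 to 9.63.

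The genes that work with the 8 did not pass either, in any comparison. This held for 0 of 15 genes of the Ncam and L1 family and their partners, 0 of 9 GDNF family ligands and receptors, 0 of 14 genes of Kit ligand and signaling and 0 of 7 of the Mia family and its binding partners. Over all probe sets 4.57%, 0.00884% and 0.367% passed for WT minus KO, MT minus KO and MT minus WT. Counts of 0 in lists of this length are near those shares. Across these lists 3, 1, 3 and 2 members had an unadjusted p under 0.05 for WT minus KO, against 23.9% of all probe sets. Ret, the signaling partner of Gfra1, was dim (5.60 to 6.16). Kitl, the ligand of Kit, read 7.04 to 7.85 in WT and 7.60 to 8.58 in KO tumors, and WT minus KO was -0.83 (SE 0.29, limma adjusted p = 0.120). Fn1, the fibronectin that Mia binds, read 8.81 to 11.44 in WT and 11.99 to 12.77 in KO tumors. The difference was -2.12 (SE 0.59, limma adjusted p = 0.0645) without overlap, an arrangement that 14.5% of all probe sets share. In MT1 to MT4 Fn1 read 11.37, 12.95, 11.70 and 11.07, so MT1 and MT4 lay within the WT range. The family member Mia2 was dim (4.26 to 4.55), and Mia3, a cargo receptor for collagen export, read 8.80 to 9.76 with no difference between genotypes that passed.

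The chondrocyte list was included because Mia is also a cartilage protein. Of its 18 genes only Col9a3, a chain of collagen IX, passed in the fit without a batch block. It read 6.67, 7.89, 7.23 and 7.19 in WT1 to WT4, and 10.42, 10.16, 10.11 and 9.02 in KO1 to KO4. In MT1 to MT4 it read 10.70, 10.07, 10.96 and 9.20. Every WT tumor was below every other tumor, an arrangement that 1.74% of all probe sets share. WT minus KO was -2.68 (SE 0.41, limma adjusted p = 0.0113) and MT minus WT 2.99 (SE 0.41, limma adjusted p = 0.0228). Within the labeling batch, where MT4 alone stands for its genotype, MT minus WT was 1.96.

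The other cartilage genes did not share one pattern. Col9a1, another chain of collagen IX, was bright (10.21 to 12.30) in all tumors but WT2 (5.89), and Col9a2, its partner chain, read 6.96 to 9.40. The matrix genes Matn1 (3.95 to 4.22), Hapln1 (3.81 to 4.12) and Cnmd (4.38 to 6.56) were dim in most or all tumors. Col2a1, the main collagen of cartilage, read 11.82, 11.61 and 9.79 in MT1 to MT3, 7.11 in MT4 and 10.76 in KO1, against 6.55 to 8.49 in the other 7 tumors. Acan, the aggrecan gene, read 9.53 in MT2 and 5.97 to 6.86 in the other 11. Comp, a cartilage matrix protein, read 9.72 to 10.80 in MT1 to MT3 and 7.44 to 10.22 in the KO tumors but 5.61 in MT4 and 5.57 to 6.91 in WT tumors. Its WT minus KO difference was -2.98 (SE 1.00, limma adjusted p = 0.102), and it passed with the labeling batch as a block, at the same size (SE 0.54, adjusted p = 0.0205). The summed level of the list was 11.08 to 13.04 in WT, 12.35 to 13.35 in KO and 11.82 to 13.53 in MT tumors. The part of cartilage-like matrix expression in the Mia values was not tested.

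Of 19 genes of salivary ducts and end buds, Etv4, an ETS factor induced by fibroblast growth factor signaling, was the only one to pass. It read 7.28 to 8.44 in WT, 8.58 to 9.23 in KO and 8.83 to 10.14 in MT tumors. WT minus KO was -1.20 (SE 0.30, limma adjusted p = 0.0452) and MT minus WT 1.69 (SE 0.30, adjusted p = 0.0414), the latter 0.98 within the labeling batch (adjusted p = 0.549). The list summed to 13.72 to 14.93 in WT, 14.62 to 15.07 in KO and 14.42 to 14.88 in MT tumors.

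**Figure D5:**
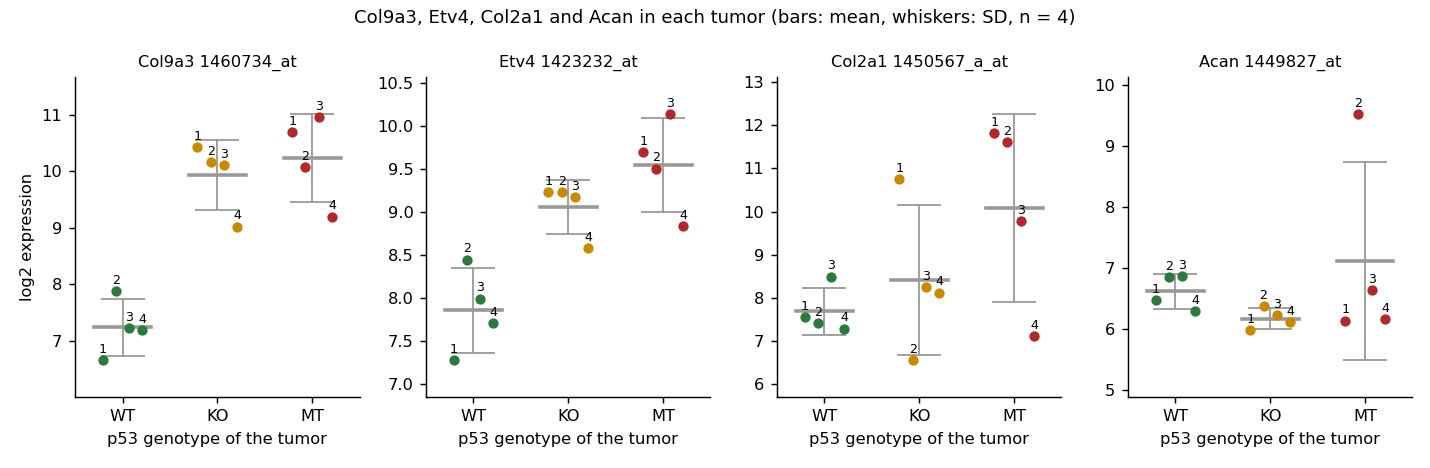
Log2 expression (vertical axes, each panel on its own scale) of Col9a3, Etv4, Col2a1 and Acan in WT, KO and MT tumors (horizontal axes). Points are single tumors marked with their number, grey bars the mean and whiskers the SD (n = 4). Col9a3 and Etv4 are lower in all WT tumors than in all others, as are 1.74% of all probe sets. Col2a1 is above 9.5 only in KO1 and MT1 to MT3, and Acan is high in MT2 (9.53) alone.

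Genes whose pattern over the 12 tumors was most like that of Mia, Ncam1 and Sox10 were ranked by Pearson's r, as a description, since genes of 1 array share its labeling and quality. For Mia they were Nup155 (r = 0.97), Tmem40 (0.94), Anxa9 (0.93), Phc1 (0.93) and Slc20a1 (0.93). Nup155, a nuclear pore protein, moved in the same order as Mia over a far smaller range, with means of 7.84 in WT and 8.21 in KO tumors, 8.21 in MT1 to MT3 and 7.90 in MT4. Tmem40, a membrane protein, read 6.14, 8.15 and 8.09 in the same 3 groups and 5.81 in MT4. Thus MT4 was close to the WT mean in both.

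For Ncam1 (1426864_a_at) the most alike were Ppp4r3b (r = 0.89), Ascc2 (0.88), Actg2 (0.88), Pcolce (0.87) and Adamts5 (0.86). Actg2 is a smooth muscle actin, Pcolce an enhancer of procollagen processing and Adamts5 a matrix protease. Their KO means were 6.89, 7.66 and 6.90, against 5.91, 6.83 and 5.92 in WT tumors. For Sox10 (1451689_a_at) they were Prkaca (r = 0.97), Gga1 (0.94), Poldip3 (0.94), Ltbr (0.93) and Gatad2a (0.93). Prkaca, the catalytic subunit of protein kinase A, averaged 9.17 in MT1 to MT3, read 7.90 in MT4 and averaged 8.32 in WT and 8.50 in KO tumors, the order seen for Sox10. Gga1 and Poldip3 lie on chromosome 15, as does Sox10.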

How the data were processed

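RNA of 12 salivary tumors, 4 per p53 genotype, was read on 1 Affymetrix array each. The deposited values are log2 expression levels that, by the methods, the authors made with RMA (background correction, quantile normalization and median polish). The submitters' processing notes also name MAS5, without versions. Quantile normalization draws the arrays to 1 distribution, so a shift shared by all genes is not seen. Intensity files were not analysed here. The number of arrays limits the precision. Of 22690 probe sets, 64 controls were left out. The annotation gives 20380 of the remaining 22626 a single symbol, 691 several and 1555 none.

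Group means were fitted with limma 3.58.1 in R 4.3.3 (9 residual degrees of freedom, 2-sided, Benjamini-Hochberg over 22626 probe sets, threshold 0.05). The methods' t-test and SAM were run as alternatives. Correlations used scipy 1.17.1 and numpy 2.4.6 under Python 3.11.15, and figures matplotlib 3.10.9. Promoters and chromosomes are from RefSeq tables of GRCm38.p6, and 5 of the 8 genes had a promoter entry. For list genes with several probe sets the one with the highest mean was read.

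The 8 genes, the lists and the tests were chosen with earlier results of these data known. The labeling batch is inferred from 27 poly-A control probe sets and named in no source used here. Named list genes are the defining genes of each list, up to 4 that passed per list, and for Mia, Ncam1 and Sox10 the 5 most alike. Other list genes (Foxd3, Snai2, Erbb3, Mitf, Ret, Kitl, Fn1, Mia2, Mia3, Cnp, Col9a1, Col9a2, Matn1, Hapln1, Cnmd and Comp) were named after their values were seen. The same holds for Tfap2a, Tfap2b and Sox9. Same-numbered tumors of different genotypes correlated above 0.1 in 6 of 12 pairs (0.0023 to 0.335), which does not make pairs of them. Alternatives were other scalings, a filter on dim probe sets, fits to 8 tumors, a mean-variance trend, blocks for batch and tumor number, other thresholds and each tumor left out. The steps were tested on simulated data.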

Additional observations from a re-analysis of the deposited data

Results flagged for a closer look

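Within each genotype, the highest and lowest tumor of every probe set of the 8 genes, of the defining list genes and of the list genes that passed was compared with the other 3, and 12 of 129 groups held a tumor far from the rest. Chance alone marks about 1 in 20 groups. In MT4, Mia read 7.40, Sox10 read 8.50 at 1424985_a_at and 10.48 at 1451689_a_at, and Mbp read 3.65 at 1454651_x_at, each the lowest MT value. MT4 is also the only MT tumor at the low poly-A level, so these values and the batch cannot be told apart. The rule weighs a gap against the range of the group, whatever its size. The mean of MT1 to MT3 lay 3.32 above MT4 for Mia, and 1.92 and 1.77 above it for the Sox10 probe sets. For the Mbp probe set, at the bottom of the array, it was only 0.07 above MT4. In MT2, S100b read 5.16 at 1434342_at and Acan read 9.53, the highest MT values of each. Gfra1 at 1421973_at was lowest in WT4 (4.83) among WT tumors and in KO4 (4.57) among KO tumors.

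Among the list genes, Krt14 was 6.25 in WT2, Trp63 was 5.85 in WT3 and Acta1 was 7.63 in MT1, each the highest of its genotype, and Etv4 was 8.58 in KO4, the lowest KO value. KO4 also had the largest gap between the 3′ and 5′ probe sets of actin, 1.05 on the log2 scale against 0.17 to 0.58 in the other 11 tumors. In the control probe sets, outside the measured genes, the poly-A mean of MT1 to MT3 was at least 10.38, where the other 9 tumors stayed at or below 4.23.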

How the results depend on the processing

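Of the 19 tested probe sets of the 6 genes, 0 were called in every comparison under each normalization, filter, fit, threshold, test and block tried. With each tumor left out in turn the count was 0 for WT minus KO, 0 to 2 for MT minus KO and 0 to 3 for MT minus WT. MT4 alone accounts for the higher counts, since without it 2 and 3 Sox10 probe sets passed. With a replicate block for the tumor number, 0 of 19 passed in each comparison, and 3, 0 and 2 list genes passed against 4, 0 and 2 without the block. The block moved none of these counts by over 1.5 times. Over all probe sets it took the calls for MT minus KO from 2 to 0.

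Of the list genes, 4 passed for WT minus KO, but 2 after quantile normalization, 0 by the methods' t-test or at a threshold of 0.01, 16 at 0.1, and 1 to 7 with each tumor left out. For MT minus WT 2 passed, but 0 in a fit of the 8 tumors compared, by the methods' t-test, with the labeling batch as a block or at 0.01, and 0 to 5 with each tumor left out. For WT minus KO the count was 1 or 2 without WT1, WT3, KO1, KO2, KO3, MT1 or MT3 and 7 without WT4. For MT minus WT it was 0 without WT1, WT3, MT1, MT2 or MT3, 1 without KO1, KO2 or KO3 and 5 without WT4 or MT4. For MT minus KO 0 passed throughout.

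Over all probe sets the calls for WT minus KO were 1035, with 374 in a fit of 8 tumors, 604 without dim probe sets, 10 by the methods' t-test and 61 and 2541 at thresholds of 0.01 and 0.1. For MT minus WT they were 83, with 147 after centering, 131 after quantile normalization, 133 without dim probe sets, 11 in a fit of 8 tumors, 0 by the methods' t-test, 19 with the batch as a block and 4 and 618 at the other thresholds. For MT minus KO they were 2, with 0 to 13 under these settings. With each tumor left out the calls for WT minus KO ranged from 196 to 1360 (196 without WT3, 269 without WT1, 401 without KO3, 452 without KO2 and 627 without KO1). For MT minus WT they ranged from 4 to 801 (4 without WT1 or MT3, 5 without WT3, 11 without MT1, 21 without MT2, 45 without KO3, 276 without WT2, 578 without WT4 and 801 without MT4). For MT minus KO they were 2 to 4, but 235 without MT4.

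For Mia, WT minus KO ranged from -4.15 to -3.50 with each tumor left out, MT minus WT from 3.16 to 4.35, and MT minus KO from -0.73 to 0.46. For Ncam1 1426865_a_at, WT minus KO ranged from -2.17 to -1.81 and MT minus KO from -1.89 to -1.55. The batch block moved Mia to -2.86 for MT minus KO and 1.03 for MT minus WT, and Ncam1 1425126_at to -0.86 and -0.32. The correlation of Mia with Sox10 ranged from -0.39 to 0.95 with each tumor left out, and no correlation with Sox10 passed under the settings tried. Only 7 of the 19 tested probe sets were above the median of all values in at least 4 tumors, which limits what can be said of Mbp, S100b and Gfra1.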

Other observations

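Genes beside Mia, Ncam1 and Sox10 on the chromosome were read as well, 5 on each side that have a probe set. For Mia, on chromosome 7, Pearson's r with the neighbors over 12 tumors ran from -0.37 (Sptbn4) to 0.56 (Cyp2g1), and for Ncam1, on chromosome 9, from -0.51 (Tmprss5) to 0.09 (Pts). For Sox10, on chromosome 15, it ran from -0.31 (Slc16a8) to 0.88 (Triobp), with 0.72 for both Pla2g6 and Tmem184b. Triobp, an actin-binding protein gene, averaged 9.43 in MT1 to MT3, read 7.80 in MT4 and averaged 8.11 in WT and 8.36 in KO tumors. The 2 genes nearest to Sox10, Polr2f and Pick1, had r of 0.05 and 0.32. These are descriptions over tumors that share the labeling split and were not tested.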
